A study of Homo sapiens with 12 samples.

Results

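The SFRP, DKK and WIF1 genes encode secreted antagonists of Wnt signalling, and their mRNA was followed here in clones of Colo320DM, a human colorectal cancer cell line. The genes were chosen by name: SFRP1, SFRP2, SFRP4, SFRP5, DKK1, DKK2, DKK3, DKK4 and WIF1. These 9 genes, of 21158 gene symbols on the array, had 11 distinct probes. The rule used no measured value, although the genes were picked with earlier results of these data known. Wnt proteins bind Frizzled receptors and the coreceptors LRP5 and LRP6, which leads to stabilised β-catenin and transcription of target genes. SFRP proteins and WIF1 bind Wnt proteins outside the cell, whereas DKK1, DKK2 and DKK4 bind LRP5 and LRP6. In colorectal cancer, where mutations of APC or β-catenin commonly activate the pathway inside the cell, several of these antagonist genes are known to be silenced with methylation of their promoter CpG islands.

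Total RNA of 6 stable Colo320DM clones was hybridised to 12 one-colour arrays. Of these clones, 3 carried a plasmid with a negative control artificial miRNA, and 3 carried a vector with an artificial miRNA against TET1, an enzyme that oxidises 5-methylcytosine. All clones had been transfected, selected with G418 and isolated as GFP-positive colonies, so each clone is 1 colony and differences between clone types rest on 3 colonies a side. Each clone was profiled once without drug (mock) and once after 72 h in 1 µM 5-aza-dC (5-aza-2'-deoxycytidine, which blocks DNA methyltransferases), with drug and medium renewed daily. The 4 groups of 3 arrays were therefore control mock, knockdown mock, control 5-aza-dC and knockdown 5-aza-dC. The study used 2 artificial miRNAs against TET1, and by its text knockdown clones 1 and 2 shared the first and clone 3 carried the second.

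Each value below is the log2 signal of a probe relative to the 75th percentile of its array, so a value of 0 lies at that percentile. A probe counted as detected where the scanner software marked it well above background, which held for 45.7% to 52.9% of all probes per array. The lowest signal among detected probes lay between -4.96 and -4.16 on this scale. Levels of different probes cannot be set against each other. The arrays lay on 2 slides. Slide 1 held control mock 1 and 2, all 3 knockdown mock arrays and knockdown 5-aza-dC 1 and 3, and slide 2 held the other 5. The control mock group thus had 1 array on the slide that held all control 5-aza-dC arrays. On its brightest probe, TET1 read 4.01, 3.65 and 4.05 in the control mock arrays and 3.01, 2.92 and 2.99 in the knockdown mock arrays, 52.5% of the control level on average (two-sided exact permutation p = 0.1, which no design of 3 against 3 can go below; adjusted p = 0.276 in limma). After 5-aza-dC it read 3.48, 3.79 and 3.56 in control and 2.39, 3.72 and 2.79 in knockdown clones, so knockdown 5-aza-dC 2 lay among the controls on this probe, but below all of them on the other 2 TET1 probes. Of the 7 epithelial markers EPCAM, CDH1, KRT8, KRT18, KRT20, VIL1 and CDX2, 4 were detected on every array, CDX2 and KRT18 among them. CDH1 was detected on none. VIL1 was detected on 1 treated knockdown array, and on no treated control or knockdown mock array. The summed epithelial level ran from 7.81 to 8.72 in control mock and 8.10 to 8.38 in control 5-aza-dC arrays. It ran from 7.24 to 7.89 in knockdown mock and 7.25 to 8.14 in knockdown 5-aza-dC arrays. Of the neuroendocrine markers CHGA, SYP, NCAM1 and INSM1, none was detected on every array, and NCAM1 and INSM1 on none. CHGA was detected on 1 control mock array and on all 3 treated controls, at a mean of 0.22. It was detected on no knockdown array, with a mean of -5.10 in treated knockdown clones. Its level was thus at least 28.0-fold higher in treated control than in treated knockdown clones (adjusted p = 0.0628 in limma). Testing required detection on at least 3 arrays of the fit. CHGA met this only through the treated controls, so that p-value is not read as support. The summed neuroendocrine level ran from -4.46 to -2.65 in control mock, -0.62 to 1.74 in control 5-aza-dC, -5.05 to -4.03 in knockdown mock and -3.98 to -3.30 in knockdown 5-aza-dC arrays. Over all clones limma called 1 of 5 epithelial markers tested higher after the drug, EPCAM, 1 of 2 neuroendocrine markers, CHGA, and 1 of 3 fibroblast markers, COL1A1. CHGA met the requirement of detection only with its treated control arrays, so its call is not read as support either. For the interaction of clone type and drug, limma called 0 of the 2 neuroendocrine markers tested. Of these, 1 had an unadjusted p below 0.05, as 2.54% of all probes did. The part of these markers in the results below was not tested.

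The promoter windows of 3 genes are shown because 5-aza-dC lowers DNA methylation, which in mammalian cells lies mainly on CG dinucleotides, and the genes behaved differently: WIF1 rose after the drug, DKK1 was detected throughout with no called change, and SFRP5 was detected nowhere. Each is the 250 bases before the transcription start in RefSeq, on GRCh38.p14, with CG dinucleotides in capitals. The WIF1 window is chr12:65121306-65121555 on the minus strand, that of DKK1 chr10:52314031-52314280 on the plus strand, and that of SFRP5 chr10:97772000-97772249 on the minus strand.
WIF1: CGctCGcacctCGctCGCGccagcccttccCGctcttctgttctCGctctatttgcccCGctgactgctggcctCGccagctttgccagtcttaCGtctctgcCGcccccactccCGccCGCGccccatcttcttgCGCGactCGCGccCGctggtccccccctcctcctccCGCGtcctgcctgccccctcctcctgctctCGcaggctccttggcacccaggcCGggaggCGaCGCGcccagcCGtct
DKK1: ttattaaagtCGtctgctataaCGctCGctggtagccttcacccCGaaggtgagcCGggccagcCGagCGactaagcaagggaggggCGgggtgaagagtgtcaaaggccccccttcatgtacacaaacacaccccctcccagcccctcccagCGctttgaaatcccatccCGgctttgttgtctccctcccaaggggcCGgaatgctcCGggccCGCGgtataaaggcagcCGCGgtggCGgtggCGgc
SFRP5: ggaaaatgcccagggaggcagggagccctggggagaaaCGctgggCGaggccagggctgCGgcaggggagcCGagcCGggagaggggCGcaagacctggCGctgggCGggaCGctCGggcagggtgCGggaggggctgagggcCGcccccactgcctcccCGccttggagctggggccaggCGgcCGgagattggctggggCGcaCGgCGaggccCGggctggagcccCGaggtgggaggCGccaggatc
The WIF1 window held 27 CG dinucleotides, and 17.7% of the 35116 promoter windows of the RefSeq table held as many. The SFRP5 window held 21, reached by 30.2% of windows, and the DKK1 window 18, reached by 36.8%. SFRP4 (17) and SFRP2 (11) had windows that were not richer than these, the median of all windows being 11. The table had windows for 5 of the 9 genes, and these counts describe sequence, not methylation, which was not measured on these arrays.

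Detection divided the genes. WIF1, DKK1 and DKK3 were each detected on all 3 arrays of at least 1 group. SFRP2 and DKK4 were detected on single arrays, and SFRP1, SFRP4, SFRP5 and DKK2 on none of the 12. In bulk RNA, a lower share of expressing cells and less RNA per cell cannot be told apart.

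**Figure D1:**
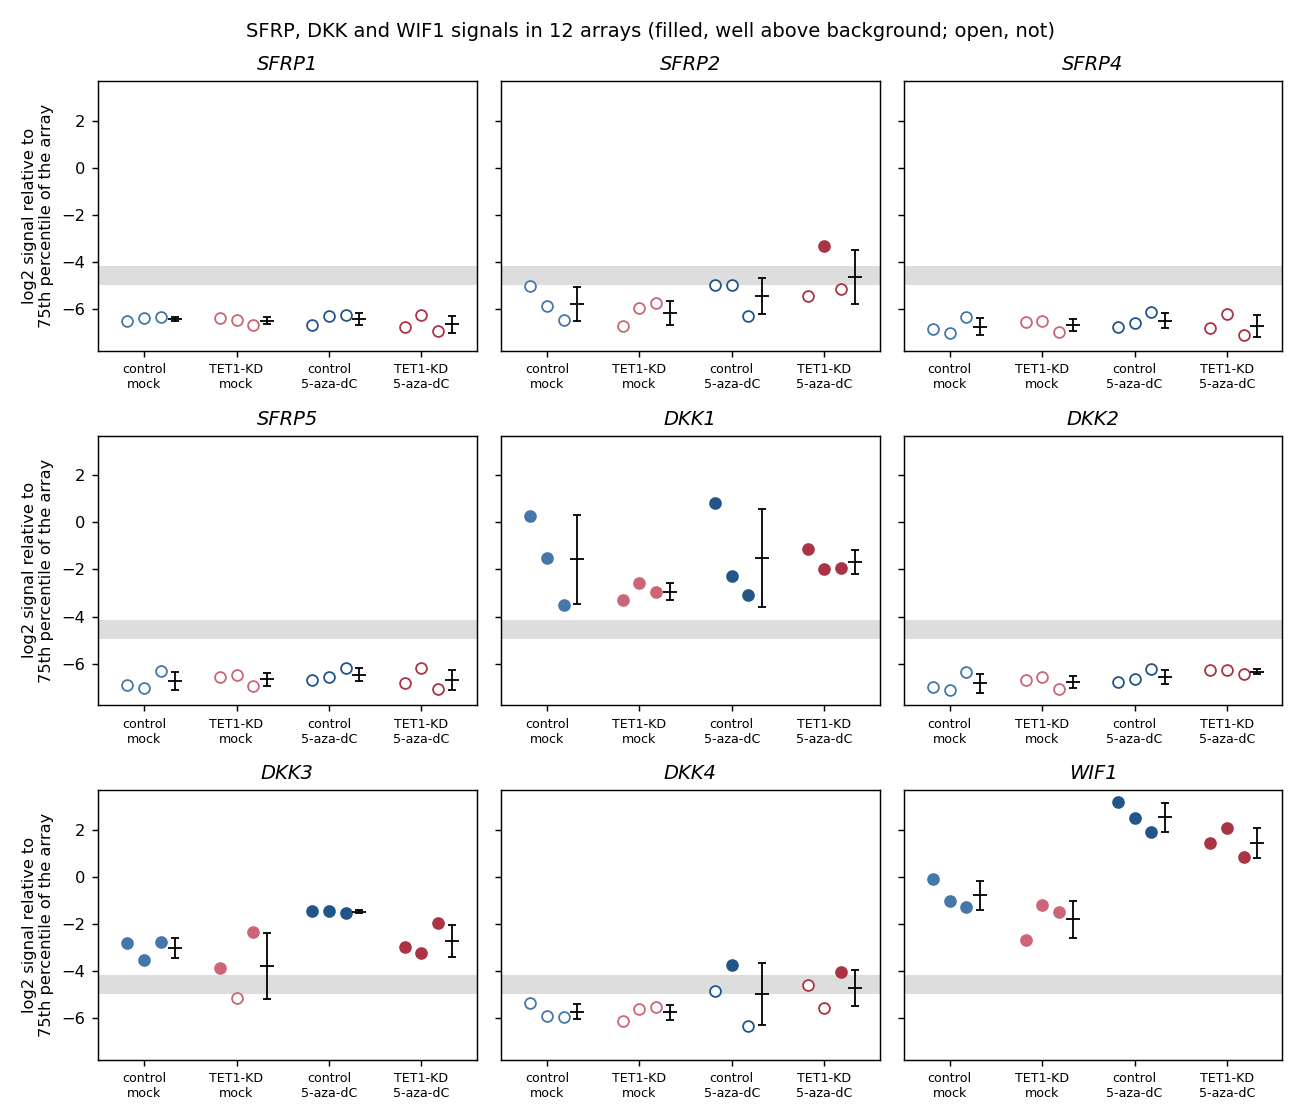
Log2 signal of the brightest probe of each gene relative to the 75th percentile of its array (vertical axis) in the 4 groups of 3 arrays (horizontal axis, replicates 1 to 3 from left to right). Filled points were well above background and open points were not, the black bars give the group mean ± SD, and the grey band spans the lowest detected signal of the 12 arrays. WIF1, DKK1 and DKK3 lie mostly above the band, and 6 genes lie mostly or wholly below it.

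Among the SFRP genes, which encode soluble proteins with a Frizzled-like cysteine-rich domain, no transcript was detected on all arrays of any group. SFRP1 was read by 10 spots of 1 probe, and its signal lay between -6.93 and -6.24 over the 12 arrays. SFRP4 lay between -7.11 and -6.14 on its brighter probe and between -7.22 and -6.37 on the other, and SFRP5 between -7.07 and -6.17. These ranges lie below the lowest detected signal of every array, after 5-aza-dC as well as in mock arrays, so only an upper bound of the level was measured. SFRP2 was detected on 1 array, knockdown 5-aza-dC 2, where it read -3.31. Its other 2 arrays of that group read -5.44 and -5.14, the control 5-aza-dC arrays -4.99, -4.99 and -6.30, and the mock arrays -6.72 to -5.01. The mock array of that clone was not well above background and lay on the other slide, so no size of the difference is given, and the probe did not pass the requirement of detection on 3 arrays.

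DKK1, the founding member of the Dickkopf family, an inhibitor that binds LRP6 and is itself a known target gene of β-catenin, was detected on all 12 arrays. It read 0.29, -1.52 and -3.51 in control mock clones 1, 2 and 3 and 0.83, -2.27 and -3.10 in the same clones after 5-aza-dC. In knockdown clones it read -3.32, -2.59 and -2.96 in mock arrays and -1.12, -1.98 and -1.96 after the drug. The control clones thus spanned 3.79 in mock and 3.93 in treated arrays on the log2 scale and kept their order, with clone 1 highest in both. The knockdown clones lay within that span. Each knockdown clone read higher after the drug, by 2.19, 0.61 and 1.00, with no overlap between mock and treated arrays. The share of all probes without such overlap is not given here, so nothing is read from it.

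The mean difference in DKK1 after 5-aza-dC was 1.27 (SE 0.33, n = 3) in knockdown clones, with an adjusted p of 0.203 in limma, and 0.07 (SE 1.29, n = 3) in control clones, with an adjusted p of 0.978. The interaction of clone type and drug, which tests whether these differ, was 1.20 (95% interval -2.06 to 4.46, adjusted p = 1.00 in limma). These fits did not pair the mock and treated arrays of a clone. With the clone as a block, the SE in control clones was 0.31. The interaction then had an SE of 0.54, a 95% interval of -0.10 to 2.50 and an adjusted p of 0.976 in limma (unadjusted p = 0.0641). The difference in control clones had no settled sign. It was -0.039 after quantile normalization, -0.014 after normexp with quantile normalization and -0.19 with the array median as the scale, 2.00 with slide as a block, and between -1.10 and 1.00 when 1 array was left out. Knockdown minus control was -1.38 (SE 0.89, adjusted p = 0.570) in mock arrays and -0.17 (SE 0.97, adjusted p = 0.928) after the drug. The mock difference rested largely on control clone 1 and was -0.44 without control mock 1. With slide as a block it was -2.34 (adjusted p = 0.357), which is also the difference within slide 1, since control mock 3, the lowest control, lay on slide 2.

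DKK2, which acts through LRP6 as well, was detected on no array and lay between -7.13 and -6.22. DKK4, another inhibitor of LRP6 signalling and a known β-catenin target, was detected on 2 arrays, both treated: control 5-aza-dC 2 at -3.74 and knockdown 5-aza-dC 3 at -4.04. The other treated arrays read -4.84 and -6.33 in control and -4.61 and -5.55 in knockdown clones, and the 6 mock arrays -6.10 to -5.36. Every other reading was not well above background, so differences by clone are not measured sizes, and with 2 detected arrays DKK4 was not tested.

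DKK3, a divergent family member that does not bind LRP6 in the way of DKK1, was read by 2 probes, of which 1 was mostly not above background. Both match the transcript NM_015881 on chromosome 11 (hg19, minus strand). The brighter probe, A_24_P261417, starts at base 2328 of the transcript (chr11:11984915-11984974), and the other, A_33_P3261293, at base 1080 (chr11:11986163-11986222). Their first 30 of 60 bases are given to tell them apart, as the scanner files list them, with no base in capitals.
A_24_P261417: ggtaattgtagggcgaggattataaatgaa
A_33_P3261293: tgtatgtgtgcaagccgaccttcgtgggga
The brighter probe was detected on 11 arrays, all but knockdown mock 2, and the other on 3, namely control mock 1, knockdown mock 3 and knockdown 5-aza-dC 3. Values of DKK3 are from the brighter probe unless stated.

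DKK3 read -2.80, -3.52 and -2.75 in control mock clones and -1.44, -1.46 and -1.55 in the same clones after 5-aza-dC. In knockdown clones it read -3.89, -5.14 and -2.36 in mock arrays, the second of them not well above background, and -2.97, -3.23 and -1.97 after the drug. Control mock and treated arrays did not overlap, and the treated controls lay within 0.11 of each other. Knockdown mock and treated arrays did overlap, although every clone read higher after the drug, by 1.36, 2.06 and 1.20 in control and by 0.92, 1.91 and 0.39 in knockdown clones. Without the share over all probes beside it, nothing is read from overlap or its absence.

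In control clones DKK3 rose by 1.54 (SE 0.24, n = 3), a 2.91-fold change with an adjusted p of 0.0211 in limma. With slide as a block the difference was 1.27 and no longer passed (adjusted p = 0.133), nor did it pass without any 1 of the control 5-aza-dC arrays 1, 2 or 3 (adjusted p = 0.130, 0.141 and 0.141). In knockdown clones the difference was 1.07 (SE 0.72, 95% interval -0.66 to 2.81, adjusted p = 0.707), and it was 0.40 without knockdown mock 2, the array not well above background, and 1.79 without knockdown mock 3. Over all 6 clones it was 1.31 (SE 0.42) with an adjusted p of 0.0638, and with the clone as a replicate block it passed (adjusted p = 0.0156), but not with slide as a block (1.40, adjusted p = 0.148) or with both blocks (0.87, adjusted p = 0.0907). It also passed without knockdown mock 3 (1.67, adjusted p = 0.00861). The interaction was -0.47 (95% interval -2.32 to 1.38, adjusted p = 1.00). The dimmer probe was above background on too few arrays to give a measured size or direction. All 3 treated knockdown clones lay below all 3 treated controls on the brighter probe, by 1.24 on average (SE 0.35, adjusted p = 0.191), and the difference did not pass the test across all probes. In mock arrays the difference was -0.77 (SE 0.68, adjusted p = 0.650), and it ran from -1.49 without knockdown mock 3 to -0.10 without knockdown mock 2.

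WIF1, Wnt inhibitory factor, a secreted protein that binds Wnt proteins through its WIF domain, was detected on all 12 arrays and rose strongly after 5-aza-dC in clones of both kinds. It was read by 1 probe at chr12:65444732-65444791 (hg19, minus strand), with intensities between 75.6 and 4749. In control clones 1, 2 and 3 it read -0.08, -1.03 and -1.27 in mock arrays and 3.16, 2.48 and 1.91 after the drug. In knockdown clones it read -2.69, -1.21 and -1.50 in mock arrays and 1.42, 2.07 and 0.83 after the drug. Every treated array lay above every mock array, whatever the clone.

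**Figure D2:**
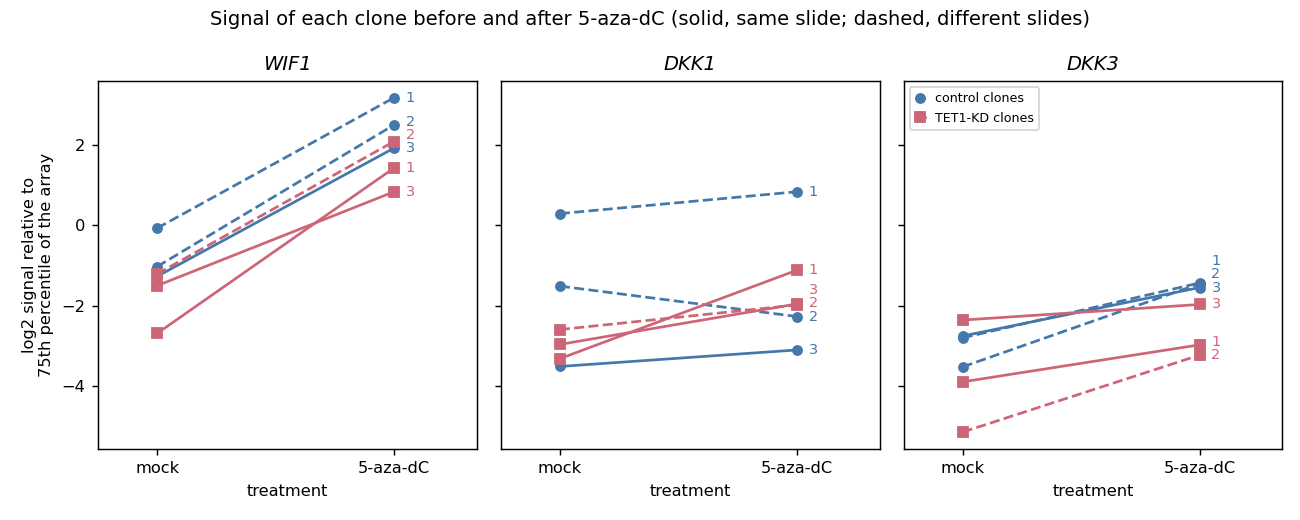
Log2 signal of WIF1, DKK1 and DKK3 (brightest probes) relative to the 75th percentile of the array (vertical axis), in mock and 5-aza-dC arrays (horizontal axis), with a line for each of the 3 control (circles) and 3 knockdown (squares) clones, numbered at the right. Solid lines join arrays of the same slide and dashed lines arrays of different slides. All 6 WIF1 lines rise, those of DKK1 rise in 5 clones and fall in control clone 2, and those of DKK3 rise in all 6.

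The rise in WIF1 was 3.31 (SE 0.43, 9.94-fold, adjusted p = 0.0110 in limma) in control clones and 3.24 (SE 0.49, 9.46-fold, adjusted p = 0.0237) in knockdown clones. Over all 6 clones it was 3.28 (SE 0.35, 9.69-fold, adjusted p = 0.000177 in limma). The increase ranked 294 by fitted size among the 27281 probes tested. These include probes detected on no mock array, whose sizes were not measured, so the rank is only approximate. By clone, the increase was 3.24, 3.52 and 3.18 in control clones and 4.11, 3.29 and 2.33 in knockdown clones. Of these, control clone 3 and knockdown clones 1 and 3 had both arrays on the same slide. The interaction was -0.07 (95% interval -1.63 to 1.49, adjusted p = 1.00).

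The call over all clones held in each of the 22 alternatives run, with values from 2.80 to 3.46. The methods' t-test was not run over all clones. Within control clones it was lost with slide as a block (3.79, adjusted p = 0.0566) and without control 5-aza-dC 1, 2 or 3 (adjusted p = 0.0836, 0.106 and 0.0814). Within knockdown clones it was lost with slide as a block (2.92, adjusted p = 0.0863), and without knockdown mock 3 or any knockdown 5-aza-dC array, with differences between 2.92 and 3.55 and adjusted p-values from 0.0644 to 0.311.

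WIF1 read lower on average in knockdown than in control clones before and after the drug, and neither difference passed the test. In mock arrays it was -1.01 (SE 0.48, adjusted p = 0.490), and after 5-aza-dC -1.08 (SE 0.43, adjusted p = 0.250), with overlapping groups in both. Knockdown 5-aza-dC 2, the highest knockdown array, was the 1 treated knockdown array on slide 2 with the controls. Within that slide the difference was -0.44, and with that array left out, where clone type and slide coincide, it was -1.40 (adjusted p = 0.0491).

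**Figure D3:**
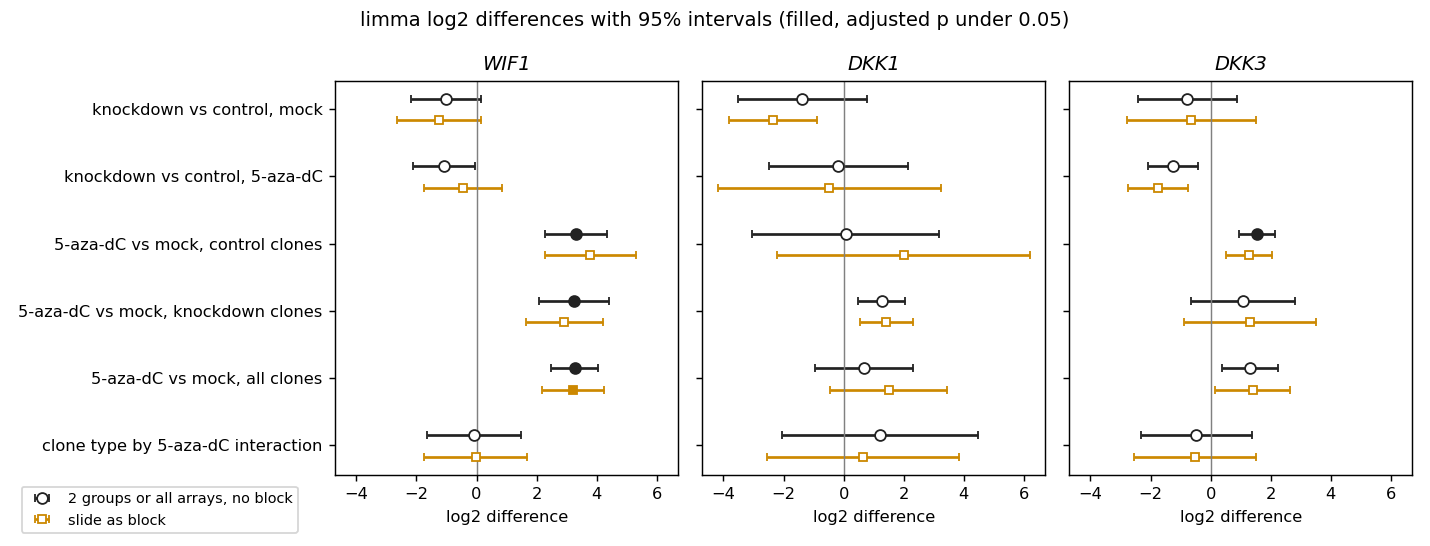
Differences in log2 signal (horizontal axis) with 95% intervals for WIF1, DKK1 and DKK3 in the 6 comparisons (vertical axis), from limma without a block (black circles) and with slide as a block (orange squares). Filled symbols passed an adjusted p of 0.05, and only WIF1 over all clones passed in both fits, at 3.28 and 3.22.

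Counted over the members, few calls were made, and they are set beside the share of all probes called. In control clones 2 of 3 member probes tested rose after 5-aza-dC, WIF1 and DKK3, where 5.31% of probes were called and 3.82% were called higher. In knockdown clones 1 of 3 rose, WIF1, where 2.06% were called and 2.05% called higher. Over all clones 1 of 4 rose, again WIF1, where 13.3% were called and 7.24% called higher. With 3 or 4 probes tested, nothing particular to these genes is read from the counts. The share of calls that were higher depended on the scale: over all clones it was 54.6%, against 38.5% with quantile normalization and 16.8% with the array median as the scale, and in control clones 71.9%, 55.0% and 25.6%. WIF1 and DKK3 kept their sign and WIF1 its call under each of these scales. In control clones DKK3 kept its call under both other scales as well (adjusted p = 0.0217 and 0.0277 in limma).

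Between clone types, no member probe of 3 was called by limma in mock arrays, where 0.137% of probes were called, and 0 of 3 had an unadjusted p below 0.05, against 11.1% of all probes. None of 3 was called after 5-aza-dC, where 0.068% were called, although 2 of 3, WIF1 and DKK3, had unadjusted p-values below 0.05, as 19.3% of all probes did. None of 4 was called for the interaction, where 0.033% were called, and 0 of 4 had an unadjusted p below 0.05. The methods' t-test called none in either comparison of clone types.

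The rest of the Wnt pathway was taken from 7 lists with 77 genes, of which 75 were on the array and 55 were tested over all clones, each by its brightest probe. After 5-aza-dC, 5 of the 55 rose and 4 fell, 16.4% against 13.3% of all probes, and the median difference was 0.01 against -0.06. Of those that rose, SP5 and SOST were detected on no mock array and were tested only through their treated arrays. FRZB, detected on 1 mock array, also reached 3 detected arrays only with treated arrays. None of these calls is read as support. Between clone types limma called 0 of 50 in mock and 0 of 53 in treated arrays, with 9 and 11 at an unadjusted p below 0.05, beside 11.1% and 19.3% of all probes, and the methods' t-test called 0 in both. For the interaction it called 0 of 55, with 0 at an unadjusted p below 0.05. In control clones 2 rose and 3 fell of 51 tested, 9.8% against 5.31% of all probes, and in knockdown clones 1 rose of 53, 1.89% against 2.06%. SP5 was 1 of the 2 and was the only call in knockdown clones.

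Of the other secreted antagonists, 3 of 8 tested were called higher over all clones and none lower, where 7.24% of all probes were called higher. With 8 genes nothing particular to the list is read from this. SOST, sclerostin, which like DKK1 binds LRP5 and LRP6, was detected on none of the 6 mock arrays and on 4 of 6 treated arrays (2 of each clone type). Its means were -6.50 and -6.58 in mock and -3.91 and -4.13 in treated control and knockdown clones. Since not every treated array was well above background in either clone type, no bound of the fold is given. SOST entered the test only through its treated arrays, so its call is not read as support. NOTUM, an enzyme that removes the lipid from Wnt proteins, rose by 1.82 (SE 0.44, adjusted p = 0.0226), and in control clones by 2.74 (SE 0.46, adjusted p = 0.0270). In knockdown clones the difference was 0.89 (SE 0.65, adjusted p = 0.719), and the interaction was -1.85 (SE 0.87, adjusted p = 1.00). Treated knockdown minus treated control was -2.55 and did not pass (SE 0.44, adjusted p = 0.1145). With slide as a block the values over all clones and in control clones were 1.24 and 2.01 and neither passed (adjusted p = 0.142 and 0.166). FRZB, the SFRP relative also called SFRP3, had a fitted difference of 1.84 (SE 0.44, adjusted p = 0.0216 in limma). It met the requirement of detection on 3 arrays only with its treated arrays, so its call is not read as support. It was detected on 1 of 6 mock arrays, knockdown mock 1, and on 4 of 6 treated arrays, all 3 of the knockdown clones among them. The means were -6.17 and -4.93 in mock and -4.38 and -3.04 in treated control and knockdown clones, so its fitted change is no measured fold.

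The receptors of DKK proteins were mostly detected throughout. LRP6, at means of 2.74 to 3.21 by group, LRP5 and KREMEN1, a DKK receptor, were detected on all arrays, and KREMEN2 on 11. In limma 0 of the 4 passed over all clones, with 3 at an unadjusted p below 0.05, as 32.4% of all probes had. The largest differences over all clones were 1.30 (SE 0.51, adjusted p = 0.114) for KREMEN2 and -0.48 (SE 0.17, adjusted p = 0.0843) for KREMEN1. Of 19 Wnt ligands, 7 were detected on every array and 6 on none. WNT5A, a ligand of β-catenin-independent signalling, fell by 1.16 in control clones (SE 0.15, adjusted p = 0.00994), and over all clones the difference was -0.93 (adjusted p = 0.221). The other large difference among ligands was that of WNT2B, at 0.78 (adjusted p = 0.0754).

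Of 14 Wnt receptors, 12 were detected on every array, and FZD9 rose over all clones by 1.11 (SE 0.28, adjusted p = 0.0268). The difference for FZD4 was 1.09 (SE 0.47, adjusted p = 0.140). Among R-spondins and their receptors RNF43, a ubiquitin ligase that removes Frizzled from the membrane, fell by 0.53 (SE 0.11, adjusted p = 0.0116), and LGR6 differed by -0.88 (adjusted p = 0.0826). RSPO3 was detected on all 3 control mock arrays, on no treated control and on 1 array of each knockdown group. Its level in control clones was thus at least 1.40-fold higher in mock than in treated arrays (adjusted p = 0.0996 in limma). RSPO3 entered that fit only through its mock arrays, so the p-value is not read as support. Of the intracellular genes, APC, the scaffold of the β-catenin destruction complex, fell by 0.84 (SE 0.17, adjusted p = 0.00996) and TCF7L2, a partner of β-catenin on DNA, by 0.82 (SE 0.14, adjusted p = 0.00439). Both also fell in control clones, by 1.16 and 1.13 (adjusted p = 0.0333 and 0.0350). These control differences did not pass with slide as a block (adjusted p = 0.163 and 0.0940). Over all clones, every called gene of these lists kept its sign in each alternative it could be fitted in, and the calls also held under the 4 other scalings run, except that of FRZB under 1 of them. CTNNB1, which encodes β-catenin, differed by 0.12 (SE 0.10, adjusted p = 0.405).

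The feedback targets moved unevenly. SP5, a transcription factor induced by Wnt signalling, was detected on no mock array and on all 6 treated arrays, at means of -6.80 and -6.76 in mock and 0.68 and 0.74 in treated control and knockdown clones. It was at least 42.0-fold higher in control and at least 38.8-fold higher in knockdown clones. SP5 met the requirement of detection on 3 arrays only through treated arrays, so its calls are not read as support. TNFRSF19 fell by 1.06 (SE 0.20, adjusted p = 0.00788). AXIN2, a widely used readout of the pathway, had a difference of -0.79 (SE 0.29, adjusted p = 0.0945). Over all clones the calls of RNF43, APC and TCF7L2 held in 21 of 22 alternatives, and that of TNFRSF19 in 20 of 22. That of FZD9 held in 17 of 22, and those of FRZB and NOTUM in 16 and 15 of 21. In control clones the calls held in 12 of 19 alternatives for WNT5A, 10 for NOTUM, 9 for TCF7L2 and 8 for APC.

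**Figure D4:**
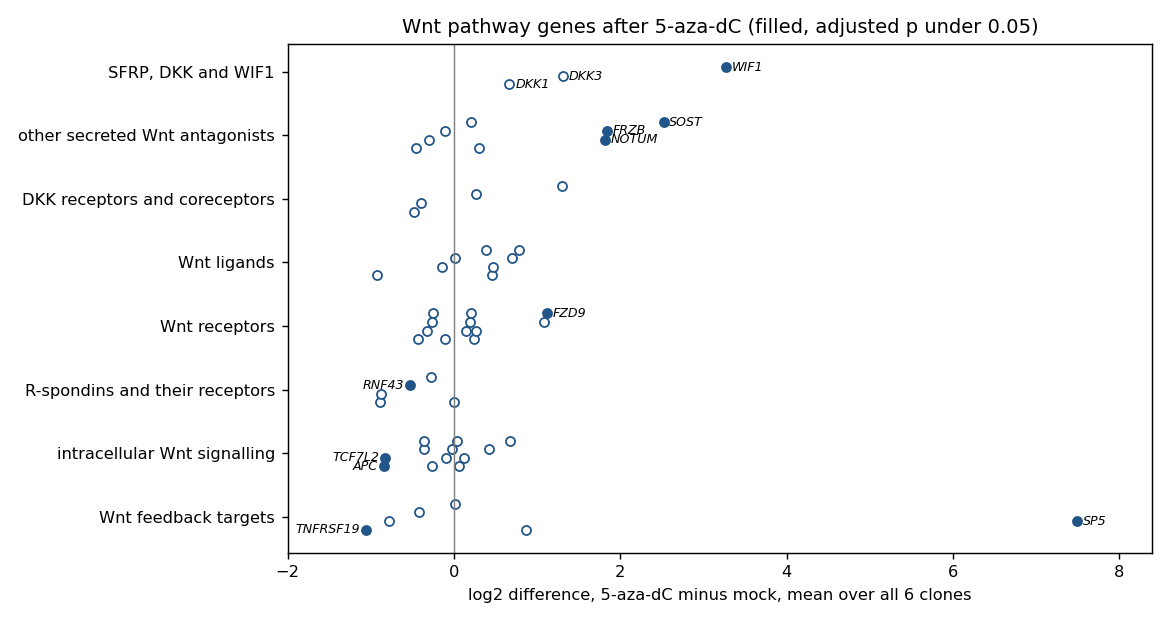
Difference in log2 signal, 5-aza-dC minus mock over all 6 clones (horizontal axis), for WIF1, DKK1 and DKK3 and for the tested genes of 7 Wnt lists (vertical axis), 1 point per gene by its brightest probe. Filled and named points of the lists passed an adjusted p of 0.05, with WIF1 at 3.28 and NOTUM at 1.82. SP5 and SOST were detected on no mock array and FRZB on 1, so their fitted values are no measured folds and have no order against the others.

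By their pattern over the 12 arrays, the genes most like WIF1 among 17432 probes of other genes were LRRC32 (Pearson r = 0.978), SOHLH1 (0.968) and LOC388242 (0.965). Each was detected on all 6 treated arrays. LRRC32 was detected on no mock array, and the other 2 on 2 of 6. Most like DKK3 were OPTN (0.966), IGDCC4 (0.963) and SIK2 (0.949), and among those most like DKK1 were HERC2 (0.884) and ZNF134 (0.882). These correlations describe 12 arrays that share clones, slides and treatment.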

How the data were processed

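Total RNA of 12 cultures was labelled with Cy3 and read on Agilent 60K arrays (hg19 design). The deposited scanner files hold the intensity of each spot, which the authors extracted with Agilent Feature Extraction (version 10.7 per the submitters' processing notes), background-subtracted and without normalization between arrays. The deposited series table holds the same intensities to fewer digits (largest difference 0.497%). The normalization in the authors' later steps is not given in the sources used here.

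Control spots (4259 of 62976) and outlier spots (268 to 395 per array) were left out, no spot was saturated, and spots of a probe were averaged. Log2 signals were centred on each array's 75th percentile. A probe was detected where at least 50% of its spots were well above background, and it was tested if detected on at least 3 arrays of the fit. Comparisons used limma 3.58.1 in R 4.3.3 (lmFit and eBayes, two-sided; data.table version 1.17.8) on the groups compared, or on all 12 arrays for the mean effect and the interaction, with Benjamini-Hochberg adjustment over all probes tested and a threshold of 0.05. The fits were also run on simulated arrays of probes detected on every array. The noise there was independent, without shared clones or slides, so these runs do not bear on clone or slide effects. A bound ("at least") sets the brighter group's mean against the dimmer group's mean of the higher of each array's lowest detected signal and the probe's own. It is given only where the probe was detected on every array of the brighter group. The number of arrays limits the precision. The p-values of the main fits rest on the spread between arrays of a group, which mixes clones and slides. With the replicate block, those of the drug comparisons rest on how the change differed between clones.

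Mock and treated arrays of the same number come from the same clone per the labels. Their deviations from the group means correlated at 0.213 to 0.525. The main fits did not pair them, and the replicate block did. Control and knockdown clones of a number are different clones.

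A gene was represented by its probe with the highest mean over the arrays. All 9 genes are named with every probe. From the Wnt lists, called genes and the 2 largest differences per list over all clones are named, with LRP5, LRP6, CTNNB1 and AXIN2 added after their values were seen. The 9 genes and the lists were chosen with earlier results of these data known. Promoter windows are from RefSeq, and the probe positions are those of the scanner files. The 3 genes most like each of WIF1, DKK1 and DKK3 were sought by Pearson correlation, and 1 of those for DKK1 is not reported here.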

Additional observations from a re-analysis of the deposited data

How the results depend on the processing

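The alternatives were quantile normalization, alone or after normexp, scaling by the array median, the series table, no filter on dim probes, detection on every array, outlier spots kept, slide as a block, the clone number as a replicate block, both blocks, all 12 arrays in 1 model without and with slide as a block, the methods' t-test, and leaving out each array. The rise of WIF1 over all clones kept its call throughout. In control clones, where 2 member probes were called, 0 were with slide as a block, 0 with both blocks, 0 by the methods' t-test, 1 in the model of all 12 arrays and 1 there with slide as a block, and 0 to 2 when 1 array was left out. In knockdown clones, where 1 was called, 0 were with detection on every array, with slide as a block, with both blocks or by the methods' t-test, and 0 to 1 when 1 array was left out. Over all clones 2 were called with the replicate block and 1 to 2 when 1 array was left out, since DKK3 joined WIF1. Knockdown against control after 5-aza-dC gave 0 to 1 (WIF1 without knockdown 5-aza-dC 2). The replicate block changed no other call of the members.

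Signs that turned belonged to differences that no test called. DKK1 between treated clone types was 0.29 with both blocks and -0.97 to 1.00 when 1 array was left out. Between clone types the replicate block joins different clones that share a number, so it is no true pairing there. DKK1 after 5-aza-dC in control clones was -0.039 with quantile normalization, -0.014 with normexp and quantile normalization and -0.19 with the array median, and -1.10 to 1.00 when 1 array was left out. The interaction ranged from -0.52 to 0.25 for WIF1 and from -1.14 to 0.25 for DKK3 when 1 array was left out. The causes were not tested.

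Over all probes the calls moved more. They ranged over the alternatives from 0 to 115 for knockdown against control in mock arrays (34 as reported), 0 to 7884 after 5-aza-dC (17), 0 to 8851 for 5-aza-dC in control clones (1309), 17 to 844 in knockdown clones (524), 1598 to 9907 over all clones (3615) and 2 to 15 for the interaction (9). The counts of 7884 and 8851 came without knockdown 5-aza-dC 2 and without control mock 3, where the groups and the slides coincide. The 0 for knockdown against control in mock arrays came with both blocks, which there join different clones. With the array median as the scale, the median difference of all probes after 5-aza-dC over all clones was -0.34, against -0.06. Genes near the floor of detection could be given only as bounds.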
